A study of Homo sapiens with 24 samples.

Results

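The 9 genes described here supply nucleotides for DNA synthesis or package newly made DNA, and were chosen by their symbols: RRM1, RRM2, TYMS, TK1, CHAF1A, CHAF1B, PCNA, UHRF1 and DNMT1. All 9 were found, each as 1 entry, among 18172 genes with a symbol. RNA was from HCT116, an established line of human colorectal carcinoma cells, on 24 Illumina arrays. Cells transfected with siACL, to deplete ATP citrate lyase, and control cells transfected with siMock were kept in DMEM containing glucose, in both arms without butyrate or with 0.5, 2 or 5 mM of it over 3 days, which gave 8 groups of 3 arrays. ATP citrate lyase makes cytosolic acetyl-CoA from citrate, and butyrate is a short-chain fatty acid that inhibits histone deacetylases, so the groups set the dose of butyrate against the loss of this enzyme. All groups are of a single line, the ACLY transcript was lowered but still had mean ranks at the 75.3 percentile or higher in all siACL groups, and the labels call the replicates biological without giving culture dates or slides. No sequence of the siRNAs was at hand.

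Cells that copy their DNA need deoxynucleotides and histones at the same time. Ribonucleotide reductase, built from the large subunit RRM1 and the small subunit RRM2, turns ribonucleotides into deoxyribonucleotides. Thymidylate synthase (TYMS) makes thymidylate from deoxyuridylate, and cytosolic thymidine kinase (TK1) makes it by salvage of thymidine. PCNA is the sliding clamp that holds DNA polymerases on the template, and it recruits chromatin assembly factor 1, whose large and middle subunits are CHAF1A and CHAF1B, to place new histones H3 and H4 behind the fork. UHRF1 recognises hemimethylated DNA there and brings in DNMT1, which copies the methylation pattern to the new strand. Most of these genes are known targets of E2F factors and peak in expression around S phase in dividing cells.

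The deposited values are normal scores, which turn the rank of an entry on its array into a quantile of the normal distribution. Mid-rank entries have scores around 0, the TYMS score of 1.88 in untreated siACL is the 97 percentile, and no fold change can be given. Differences are differences of mean scores ± standard error from limma, over 3 arrays a group, with the spread of a gene shared over all 8 groups. The words rose and fell are kept for an adjusted p under 0.05 (Benjamini-Hochberg, over all 18172 genes). Group levels are mean ± SD (n = 3). Arrays of 1 group correlated at r = 0.928 to 0.955 over genes. ACLY, the target of the knockdown, scored 1.19 ± 0.02 in untreated siACL and 1.52 ± 0.02 in untreated siMock (difference -0.336 ± 0.022, adjusted p = 6.33e-08), and 0.683 ± 0.017 in siACL against 1.31 ± 0.03 in siMock at 5 mM. ACLY itself fell with butyrate at 5 mM, with differences of -0.502 ± 0.022 in siACL and -0.213 ± 0.022 in siMock (interaction -0.289 ± 0.031, adjusted p = 1.28e-05). All 5 measured epithelial markers lay above the middle of the array in every group, from KRT18 with group means at the 52.8 to 61.9 percentile to KRT19 at the 98 percentile or higher. The epithelial markers CDX1, VIL1 and LGALS4 were not measured. Of the 7 measured markers of fibroblasts, leukocytes and endothelium only COL1A1 reached above the middle in any group, with group means at the 49.4 to 71.7 percentile. In RNA from whole cultures, fewer cells expressing a gene and less RNA per cell cannot be told apart.

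The windows of 300 bases around the annotated starts (250 before and 50 after) of TK1, RRM2, TYMS and CHAF1A are shown because the main results turn on these 4 genes, whose dose patterns are set out one by one. Sequences are from RefSeq, build GRCh38.p14, written 5′ to 3′ on the gene's strand, and where a gene has several starts the one shown is named by its position. Capitals mark E2F-type cores (TTCCCGC or TTGGCGC, either strand) and CCAAT boxes (CCAAT, either strand).
TK1 (chr17:78187003-78187302, minus strand): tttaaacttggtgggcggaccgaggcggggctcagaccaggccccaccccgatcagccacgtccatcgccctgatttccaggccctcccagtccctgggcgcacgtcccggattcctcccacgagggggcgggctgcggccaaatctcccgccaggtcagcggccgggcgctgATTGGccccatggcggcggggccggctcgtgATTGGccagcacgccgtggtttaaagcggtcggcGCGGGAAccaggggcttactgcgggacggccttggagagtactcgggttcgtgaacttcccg
RRM2 (chr2:10122489-10122788, plus strand): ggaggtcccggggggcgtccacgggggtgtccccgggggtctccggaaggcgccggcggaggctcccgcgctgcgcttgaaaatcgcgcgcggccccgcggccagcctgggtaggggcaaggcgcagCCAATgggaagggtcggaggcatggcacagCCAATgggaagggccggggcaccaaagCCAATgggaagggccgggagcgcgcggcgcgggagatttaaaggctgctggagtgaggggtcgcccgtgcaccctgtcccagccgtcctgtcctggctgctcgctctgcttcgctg
TYMS (chr18:657403-657702, plus strand): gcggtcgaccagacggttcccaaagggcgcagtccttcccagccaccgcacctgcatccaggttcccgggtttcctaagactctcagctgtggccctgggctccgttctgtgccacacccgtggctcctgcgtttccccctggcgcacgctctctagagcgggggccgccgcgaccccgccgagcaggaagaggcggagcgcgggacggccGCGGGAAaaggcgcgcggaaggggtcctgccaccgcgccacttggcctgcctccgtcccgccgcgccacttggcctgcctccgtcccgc
CHAF1A (chr19:4402390-4402689, plus strand): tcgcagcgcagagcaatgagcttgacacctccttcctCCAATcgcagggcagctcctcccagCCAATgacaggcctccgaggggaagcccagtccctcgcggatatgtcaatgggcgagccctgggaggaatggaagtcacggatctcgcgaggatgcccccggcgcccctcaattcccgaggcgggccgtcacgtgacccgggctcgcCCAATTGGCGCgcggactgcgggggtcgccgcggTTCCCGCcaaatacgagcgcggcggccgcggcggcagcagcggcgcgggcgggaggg

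Of the 9 genes, 8 held an E2F-type core in at least 1 of their windows, against 11% of 27305 genes with a window, and 6 held a CCAAT box, against 39.7%. The TYMS window has 1 core and no CCAAT box, while the RRM2 window shown has 3 CCAAT boxes at positions -123, -93 and -66 from the start, all on the gene's strand, and no core. A second RRM2 window, at a start further upstream, holds 1 core and 1 CCAAT box. TK1 has 2 CCAAT boxes on the opposite strand and 1 core in the window shown, and neither in its other window. CHAF1A has 2 cores and 4 CCAAT boxes, of which 2 are the forward and reverse reading of overlapping letters, and a core overlaps them. DNMT1 alone held neither motif. The GC box GGGCGG was found for 7 genes, against 48.3% of all, TATAAA for TK1 alone, against 14%, and the cell cycle homology letters TTTGAA or TTCGAA for RRM1 alone, against 19.5%. These are matches of letters in a window, not sites shown to be used.

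The small subunit gene of ribonucleotide reductase, RRM2, was highest at a middle dose in control cells but at the top dose in siACL cells. In siACL its scores on the 3 arrays were 0.754, 0.85 and 0.814 without butyrate, 0.815, 0.79 and 0.918 at 0.5 mM, 0.985, 0.918 and 0.801 at 2 mM, and 1.01, 1.04 and 1.03 at 5 mM. In siMock they were 0.818, 0.874 and 0.907 without butyrate, 0.624, 0.77 and 0.687 at 0.5 mM, 1.2, 1.2 and 1.12 at 2 mM, and 0.622, 0.565 and 0.599 at 5 mM. Arrays of siMock at 2 mM thus lay above all others of the series, and those at 5 mM below all others. In siMock RRM2 fell at 0.5 mM (-0.173 ± 0.047, adjusted p = 0.0127), rose at 2 mM (0.305 ± 0.047, adjusted p = 4.7e-05) and fell at 5 mM (-0.271 ± 0.047, adjusted p = 9.05e-05), each against untreated cells. The fall at 0.5 mM was not called without untreated replicate 3 (adjusted p = 0.0557) or without replicate 1 at 0.5 mM (adjusted p = 0.0708). The steps between doses share no untreated array, but both use the siMock arrays at 2 mM. From 0.5 to 2 mM the difference was 0.478 ± 0.047 (adjusted p = 1.5e-06) and from 2 to 5 mM it was -0.577 ± 0.047 (adjusted p = 6.59e-08). In siACL the gene rose at 5 mM (0.22 ± 0.047, adjusted p = 0.000851), while the differences of 0.035 at 0.5 mM and 0.0957 at 2 mM did not pass. Without replicate 3 of siACL at 2 mM, its lowest array there, the difference at 2 mM was 0.146 and passed (adjusted p = 0.0323). None of the other 8 genes rose at 5 mM in either arm.

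RRM1, the large subunit gene, moved in a narrower range and did not share the rise. Its mean scores in siACL were 1.73, 1.65, 1.66 and 1.59 from untreated to 5 mM, and in siMock they were 1.76, 1.7, 1.69 and 1.44. At 5 mM the arrays of siACL (1.58 to 1.59) and those of siMock (1.42 to 1.48) lay below every array of their own untreated cells. RRM1 fell by 0.14 ± 0.022 in siACL at 5 mM (adjusted p = 4.66e-05) and by 0.319 ± 0.022 in siMock (adjusted p = 1.33e-09), which moved it to the 94.4 and the 92.6 percentile. Its differences at 0.5 mM, -0.0775 in siACL and -0.0651 in siMock, passed with adjusted p = 0.0437 and 0.0454, and each was lost without any 1 of the 6 arrays compared (adjusted p up to 0.139 and 0.121). At 2 mM it fell in both arms, with differences of -0.0635 (adjusted p = 0.0445) in siACL and -0.078 (adjusted p = 0.00978) in siMock. The first call was lost without any of 5 of the 6 arrays, with adjusted p up to 0.13 (replicate 1 at 2 mM is the other), and the second without replicate 3 at 2 mM (adjusted p = 0.0681). On percentile ranks the RRM1 calls at 0.5 and 2 mM were lost in both arms (adjusted p = 0.088 to 0.23), while those at 5 mM were kept.

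TYMS, which makes thymidylate anew, fell at each dose in both arms. Its 3 arrays in siACL were 1.89, 1.89 and 1.87 without butyrate, 1.79, 1.72 and 1.7 at 0.5 mM, 1.74, 1.74 and 1.68 at 2 mM, and 1.47, 1.51 and 1.44 at 5 mM. In siMock they were 1.88, 1.84 and 1.85 without butyrate, 1.6, 1.61 and 1.62 at 0.5 mM, 1.5, 1.54 and 1.51 at 2 mM, and 1.09, 1.14 and 1.16 at 5 mM. No treated array overlapped the untreated arrays of its arm. The siACL call at 0.5 mM was lost on percentile ranks (adjusted p = 0.0904) and in a fit of its 6 arrays alone (adjusted p = 0.0932). In siACL the differences from untreated were -0.149 ± 0.026 at 0.5 mM (adjusted p = 0.00141), -0.162 ± 0.026 at 2 mM (adjusted p = 0.000136) and, for the top dose, -0.412 ± 0.026 (adjusted p = 6.73e-10). In siMock they were -0.249 ± 0.026 at 0.5 mM (adjusted p = 2.21e-06), -0.341 ± 0.026 at 2 mM (adjusted p = 1.3e-08) and, for the top dose, -0.724 ± 0.026 (adjusted p = 2.69e-13). The scores of TYMS at 5 mM correspond to the 92.9 percentile in siACL and the 87.2 percentile in siMock. In siACL the step from 0.5 to 2 mM was -0.0133 ± 0.026 and did not pass (adjusted p = 0.823), and the step from 2 to 5 mM was -0.25 ± 0.026 (adjusted p = 1.48e-06).

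TK1, the salvage kinase gene, went the other way at low and middle doses. Its scores in siACL were 1.67, 1.67 and 1.68 without butyrate, 1.67, 1.62 and 1.66 at 0.5 mM, 1.84, 1.78 and 1.84 at 2 mM, and 1.69, 1.73 and 1.72 at 5 mM. In siMock they were 1.61, 1.65 and 1.67 without butyrate, 1.77, 1.78 and 1.79 at 0.5 mM, 1.87, 1.88 and 1.86 at 2 mM, and 1.45, 1.43 and 1.44 at 5 mM. Control arrays thus lay above all untreated arrays at 0.5 and 2 mM and below all other arrays of the series at 5 mM. TK1 rose in siMock at 0.5 mM (0.137 ± 0.021, adjusted p = 0.000107) and at the next dose, 2 mM, (0.226 ± 0.021, adjusted p = 1.13e-07) and fell at 5 mM (-0.207 ± 0.021, adjusted p = 1.29e-07). Its step from 2 to 5 mM in siMock, -0.433 ± 0.021 (adjusted p = 6.63e-11), was the most significant of the 9 genes in that comparison. In siACL it rose at 2 mM (0.143 ± 0.021, adjusted p = 4.55e-05), while the differences at 0.5 mM (-0.0275 ± 0.021, adjusted p = 0.571) and 5 mM (0.0383 ± 0.021, adjusted p = 0.15) did not pass.

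**Figure D1:**
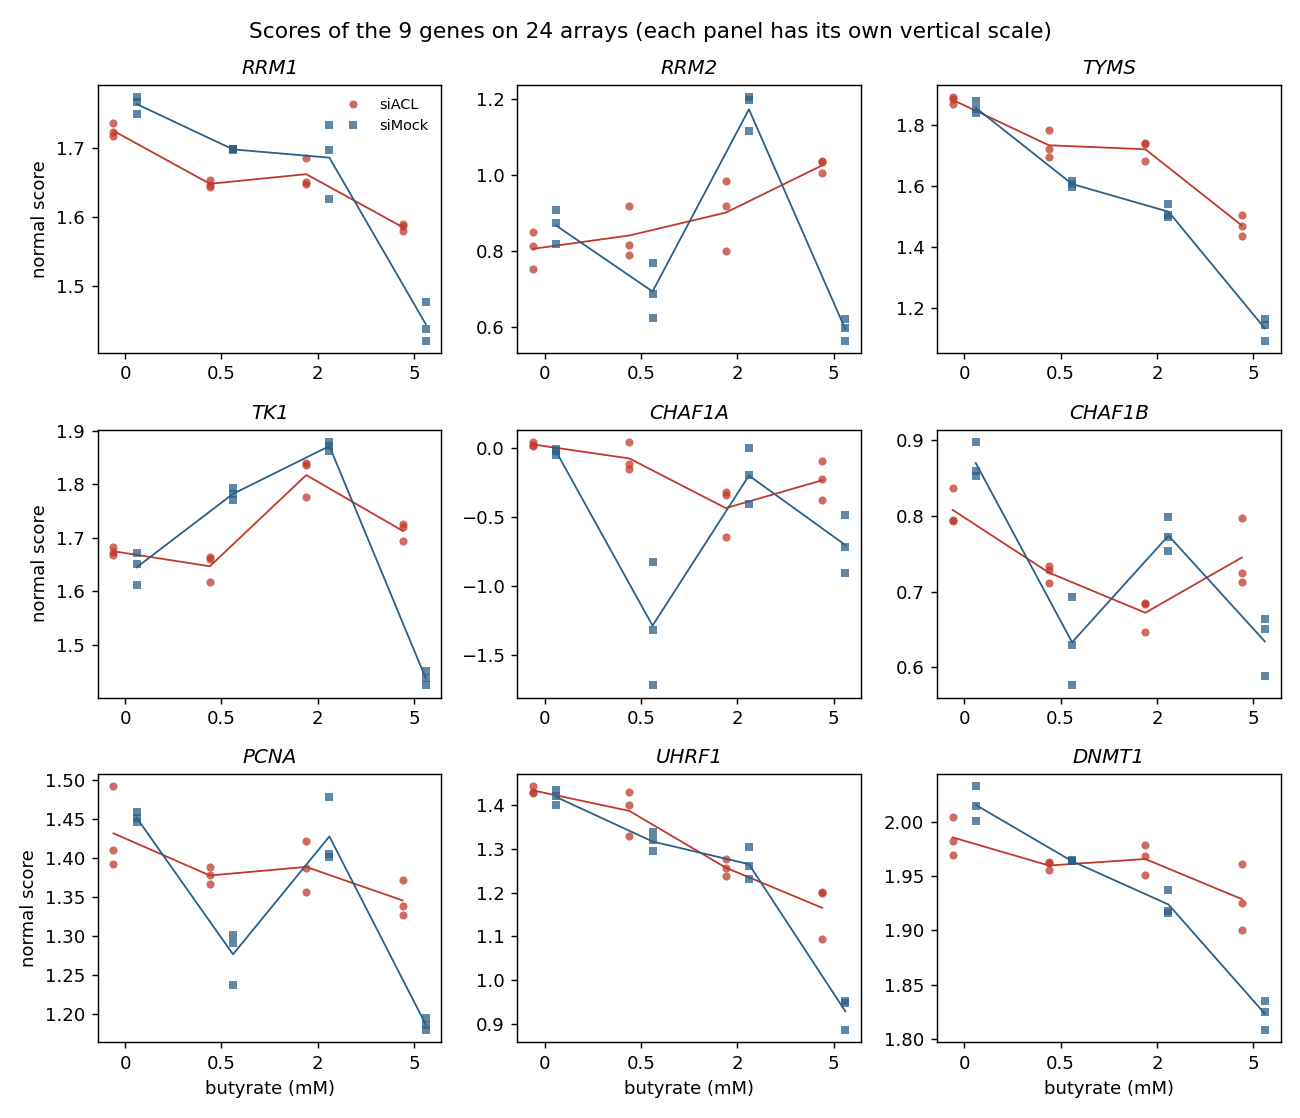
Normal scores of the 9 genes on the 24 arrays, 1 panel a gene with its own vertical scale and doses at equal spacing. Points are single arrays (siACL circles, siMock squares) and lines join group means. RRM2 and TK1 are highest in siMock at 2 mM, with RRM2 at 1.17 and TK1 at 1.87, and CHAF1A is lowest in siMock at 0.5 mM.

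CHAF1A, the large subunit gene of chromatin assembly factor 1, had its lowest scores in control cells at the lowest dose. In siACL the 3 arrays were at 0.015, 0.041 and 0.024 without butyrate, 0.046, -0.152 and -0.118 at 0.5 mM, -0.643, -0.319 and -0.343 at 2 mM, and -0.227, -0.093 and -0.379 at 5 mM. In siMock they were at -0.021, -0.003 and -0.052 without butyrate, -1.72, -1.32 and -0.828 at 0.5 mM, 0.002, -0.404 and -0.195 at 2 mM, and -0.909, -0.487 and -0.714 at 5 mM. The siMock arrays at 0.5 mM lay at the 4.3 to 20.4 percentile of their arrays, below every untreated array and every array at 2 mM, and overlapped those at 5 mM. CHAF1A fell in siMock at 0.5 mM (-1.26 ± 0.17, adjusted p = 2.6e-05) and 5 mM (-0.678 ± 0.17, adjusted p = 0.00213), and its difference of -0.174 ± 0.17 at 2 mM did not pass (adjusted p = 0.464). From 0.5 to 2 mM it rose by 1.09 ± 0.17 (adjusted p = 0.000134). In siACL only the fall at 2 mM passed (-0.462 ± 0.17, adjusted p = 0.0484), and that call was lost without any 1 of the 6 arrays compared (adjusted p up to 0.183). CHAF1A lies near the middle of the array, and its residual SD of 0.209, pooled over the 8 groups, was the largest of the 9. The other 8 had 0.0161 to 0.0577. Its spread was uneven, with an SD of 0.447 in siMock at 0.5 mM, 0.013 in untreated siACL and 0.025 in untreated siMock. The fit shares the spread of a gene over all groups, so small changes of CHAF1A could not be resolved by it, also between groups of low spread. The signal of CHAF1A over background is unknown.

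CHAF1B, the middle subunit gene, also had its lowest means in siMock at 0.5 and 5 mM. Group means were 0.808, 0.725, 0.672 and 0.745 in siACL and 0.87, 0.633, 0.774 and 0.634 in siMock, each from untreated to 5 mM. In siMock the arrays at 0.5 mM (0.576 to 0.693) and at 5 mM (0.588 to 0.664) lay below those at 2 mM (0.753 to 0.799), and these lay below the untreated arrays (0.853 to 0.898). CHAF1B fell in siMock at 0.5 mM (-0.238 ± 0.03, adjusted p = 1.55e-05), 2 mM (-0.0959 ± 0.03, adjusted p = 0.0159) and 5 mM (-0.236 ± 0.03, adjusted p = 2.43e-06), and rose from 0.5 to 2 mM (0.142 ± 0.03, adjusted p = 0.00217). The fall at 2 mM was not called without untreated replicate 3 (adjusted p = 0.0688) or replicate 2 at 2 mM (adjusted p = 0.0624). A fall at 2 mM was called in siACL as well (-0.136 ± 0.03, adjusted p = 0.00206). The siACL differences of -0.0834 for 0.5 mM (adjusted p = 0.112) and -0.0631 for 5 mM (adjusted p = 0.0974) did not pass, though the second did without replicate 2 of siACL at 5 mM (-0.0892, adjusted p = 0.029).

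PCNA, the clamp gene, dipped in control cells at 0.5 mM, was near its untreated level at 2 mM and fell at 5 mM. The siMock arrays were at 1.45, 1.46 and 1.45 without butyrate, 1.3, 1.24 and 1.29 at 0.5 mM, 1.4, 1.41 and 1.48 at 2 mM, and 1.18, 1.19 and 1.2 at 5 mM. Its differences from untreated siMock cells were -0.175 ± 0.027 at 0.5 mM (adjusted p = 0.000142), -0.0238 ± 0.027 at 2 mM (adjusted p = 0.551) and -0.265 ± 0.027 at 5 mM (adjusted p = 1.95e-07). From 0.5 to 2 mM PCNA rose by 0.151 ± 0.027 (adjusted p = 0.000622). All siACL arrays lay between 1.33 and 1.49, and there only the fall at 5 mM passed (-0.0861 ± 0.027, adjusted p = 0.015). That call was lost without untreated siACL replicate 1 (-0.0562, adjusted p = 0.108) or replicate 3 at 5 mM (-0.0768, adjusted p = 0.0584).

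UHRF1 and DNMT1, the pair that maintains DNA methylation, fell at every dose in siMock. UHRF1 had mean scores of 1.43, 1.39, 1.26 and 1.17 in siACL and of 1.42, 1.32, 1.27 and 0.928 in siMock, from untreated to 5 mM. In the siACL arm UHRF1 fell at 2 mM (-0.177 ± 0.031, adjusted p = 0.000285) and 5 mM (-0.269 ± 0.031, adjusted p = 1.07e-06), and its difference of -0.0469 at 0.5 mM did not pass (adjusted p = 0.49). In siMock it fell at 0.5 mM (-0.102 ± 0.031, adjusted p = 0.0241), 2 mM (-0.154 ± 0.031, adjusted p = 0.000622) and 5 mM (-0.491 ± 0.031, adjusted p = 3.15e-10), where its percentile was 82.3 against 92.2 without butyrate. The fall of UHRF1 at 0.5 mM was not called without untreated replicate 1 or 2 or without replicate 2 or 3 at 0.5 mM (adjusted p = 0.0558 to 0.0892), nor on percentile ranks (adjusted p = 0.0762).

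DNMT1, the maintenance methyltransferase gene, differed little between the siACL groups. In siACL its group means ran from 1.93 to 1.99, and the fall at 5 mM was 0.057 ± 0.018 (adjusted p = 0.0125). This call was lost without untreated siACL replicate 2 (adjusted p = 0.0631) or replicate 3 at 5 mM (adjusted p = 0.0801), and on the scale of percentile ranks (adjusted p = 0.325). In siMock the arrays were at 2.02, 2 and 2.03 without butyrate, 1.97, 1.96 and 1.96 at 0.5 mM, 1.94, 1.92 and 1.92 at 2 mM, and 1.81, 1.83 and 1.84 at 5 mM, with no overlap of a dose with untreated cells. The differences in siMock were -0.0521 ± 0.018 (adjusted p = 0.0403), -0.0925 ± 0.018 (adjusted p = 0.000349) and -0.194 ± 0.018 (adjusted p = 3.69e-08) from 0.5 to 5 mM. The call at 0.5 mM was lost without untreated replicate 1 or 3 or without any array at 0.5 mM (adjusted p = 0.08 to 0.143). With the replicate number as a block it had an adjusted p of 0.0546. On percentile ranks the call at 0.5 mM (adjusted p = 0.507) and that at 2 mM (adjusted p = 0.122) were both lost, while that at 5 mM was kept.

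Counted over the 9 genes, butyrate in control cells lowered 8 and raised 1 at 0.5 mM, lowered 5 and raised 2 at 2 mM, and lowered all 9 at 5 mM. Of all genes tested, 10.1% fell and 12% rose at 0.5 mM, 19.3% fell and 18.7% rose at 2 mM, and 25.2% fell and 25.6% rose at 5 mM. In siACL the counts were 2 lower and 0 higher at 0.5 mM, 5 lower and 1 higher at 2 mM, and 5 lower and 1 higher at 5 mM. Among all genes in siACL 2.45% fell and 4.79% rose at 0.5 mM, 12.8% fell and 13.7% rose at 2 mM, and 22.6% fell and 22.7% rose at 5 mM. At an unadjusted p under 0.05 the siACL counts at 0.5 mM were 3 lower and 0 higher by limma. The shares of all genes at that looser threshold were not counted, and the shares above do not apply to it. Doses within an arm share their untreated arrays. The median difference of the 9 genes at 5 mM was -0.0861 in siACL and -0.271 in siMock, beside -0.0163 and -0.013 over all genes. In a fit of the compared arrays alone, 5 of the 9 genes were called in siMock at 0.5 mM (TYMS, TK1, CHAF1A, CHAF1B and PCNA) and all 9 at 5 mM, and 0 were called in siACL at 0.5 mM. In siMock at 2 mM RRM1, CHAF1B and DNMT1 were lost there (adjusted p = 0.0533 to 0.194). In siACL at 5 mM PCNA (adjusted p = 0.111) and DNMT1 (adjusted p = 0.148) were lost and CHAF1A was called (-0.26, adjusted p = 0.0452).

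Between neighbouring doses, with no untreated array in the comparison, 5 of the 9 genes rose and then fell in control cells. Both steps of an arm use its 3 arrays at 2 mM with opposite sign, so the rise and the fall are not independent results. How many of all genes showed both calls was not counted, and the shares of the single steps do not give it. From 0.5 to 2 mM in siMock, 5 genes rose (RRM2, TK1, CHAF1A, CHAF1B and PCNA) and TYMS fell, while RRM1, UHRF1 and DNMT1 were not called (differences of -0.0129, -0.0521 and -0.0404). Among all genes 10.5% of all genes rose and 11.1% fell. TYMS was not called there without replicate 3 at 0.5 mM or without replicate 1 or 3 at 2 mM (adjusted p = 0.0559 to 0.0643), nor on percentile ranks (adjusted p = 0.0615). TK1 too was lost on percentile ranks in this step (adjusted p = 0.123). In a fit of the 6 compared arrays alone, RRM2 alone was called. From 2 to 5 mM in siMock all 9 fell, against 15.1% of all genes, and 6 of these calls were kept in a fit of the compared arrays alone. CHAF1A (adjusted p = 0.0927), CHAF1B (adjusted p = 0.0522) and DNMT1 (adjusted p = 0.0562) were lost there, and DNMT1 also on percentile ranks (adjusted p = 0.0509). The CHAF1A call in that step (-0.504 ± 0.17, adjusted p = 0.0292) was lost without replicate 1 or 3 at either dose (adjusted p = 0.0668 to 0.127). In siACL from 0.5 to 2 mM TK1 rose (0.17 ± 0.021, adjusted p = 2.46e-05) and UHRF1 fell (-0.13 ± 0.031, adjusted p = 0.00796), against 7.38% and 6.37% of all genes. With only the arrays compared 0 of the 9 were called in that siACL step, beside 650 of all genes. From 2 to 5 mM in siACL TYMS, RRM1, TK1 and UHRF1 fell, against 14.3% of all genes, and RRM2 differed by 0.124 ± 0.047 (adjusted p = 0.0596). Of these 4 only TYMS was called with the arrays compared alone, beside 3327 of all genes. RRM1 was lost on percentile ranks in this step (adjusted p = 0.0653). RRM2 was called higher with a trend and robust prior (adjusted p = 0.0272) and among genes with a mean score above 0 (adjusted p = 0.025). CHAF1B (0.073 ± 0.03, adjusted p = 0.0788) was called higher among those genes too (adjusted p = 0.0401). Without replicate 1 of siACL at 2 mM, RRM1 (adjusted p = 0.0717) and UHRF1 (adjusted p = 0.105) were not called and RRM2 was (0.165, adjusted p = 0.0208). UHRF1 was also lost without replicate 2 at 2 mM (adjusted p = 0.0719) or replicate 2 at 5 mM (adjusted p = 0.198), and DNMT1 was called without replicate 1 at 5 mM (-0.0536, adjusted p = 0.0401).

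The knockdown without butyrate gave no call among the 9 genes, whereas at 5 mM nearly all of them were higher in siACL than in siMock. The ACLY difference between the arms was also larger at 5 mM, -0.625 ± 0.022 against -0.336 ± 0.022 without butyrate, and its part in these results was not tested. Without butyrate 0 of 9 passed, also at an unadjusted p under 0.05 by limma. At an adjusted p under 0.05, 3.7% of all genes were higher and 2.61% lower. The 95% confidence intervals there were -0.0291 to 0.0816 for TYMS, -0.16 to 0.0387 for RRM2 and -0.298 to 0.402 for CHAF1A, so differences inside these bounds are not excluded. The CHAF1A interval rests on the spread shared over all groups, while its untreated arrays had an SD of 0.013 in siACL and 0.025 in siMock. At 5 mM 8 genes were higher in siACL and 0 lower, against 8.8% and 4.91% of all genes. RRM2 scored 1.03 ± 0.02 in siACL and 0.595 ± 0.029 in siMock (difference 0.43 ± 0.047, adjusted p = 7.23e-06). TYMS scored 1.47 ± 0.04 in siACL and 1.13 ± 0.04 in siMock (0.338 ± 0.026, adjusted p = 1.54e-07), and TK1 1.71 ± 0.02 in siACL and 1.44 ± 0.01 in siMock (0.275 ± 0.021, adjusted p = 1.08e-07). UHRF1 differed by 0.237 ± 0.031, PCNA by 0.159 ± 0.027, RRM1 by 0.141 ± 0.022, CHAF1B by 0.111 ± 0.03 and DNMT1 by 0.106 ± 0.018, with adjusted p = 4.86e-05 to 0.0189.

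For all 9 genes every siACL array at 5 mM lay above every siMock array at 5 mM, an order that 16.4% of all genes showed. CHAF1A had the largest difference there, 0.47 ± 0.17, and the widest interval, 0.12 to 0.821, and did not pass (adjusted p = 0.0714). It did pass without siMock replicate 2 at 5 mM (0.579, adjusted p = 0.0495) and on percentile ranks (adjusted p = 0.0243). CHAF1B was not called without siMock replicate 1 (adjusted p = 0.0983) or siACL replicate 2 (adjusted p = 0.1), and DNMT1 not on percentile ranks (adjusted p = 0.0749). In a fit of the 6 compared arrays alone, 3 genes passed at 5 mM (RRM2, TYMS and TK1).

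At the lower doses the arms differed in both directions. At 0.5 mM siACL was higher than siMock for CHAF1A (1.21 ± 0.17, adjusted p = 6.93e-05), RRM2 (0.147 ± 0.047), TYMS (0.126 ± 0.026), PCNA (0.101 ± 0.027) and CHAF1B (0.0919 ± 0.03), and lower for TK1 (-0.135 ± 0.021, adjusted p = 0.000197). These are 5 higher and 1 lower of 9, beside 9.26% and 8.42% of all genes. CHAF1A and TK1 were the 2 of these called with the arrays compared alone. The RRM2 call was lost without replicate 1 or 3 of either group (adjusted p = 0.0632 to 0.179), the CHAF1B call without any siACL array or siMock replicate 2 or 3 (adjusted p = 0.0678 to 0.195), and the PCNA call without siMock replicate 2 (adjusted p = 0.0822) or siACL replicate 1 (adjusted p = 0.0571). With the replicate number as a block the adjusted p was 0.052 for RRM2 and 0.0579 for CHAF1B.

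At 2 mM siACL was higher for TYMS (0.205 ± 0.026, adjusted p = 3.19e-05) and lower for RRM2 (-0.271 ± 0.047, adjusted p = 0.000578) and CHAF1B (-0.102 ± 0.03, adjusted p = 0.0214), with 10.6% of all genes higher and 8.52% lower. TYMS alone of these was called with the arrays compared alone. The CHAF1B call was lost without replicate 1 of siACL (adjusted p = 0.0843) or of siMock (adjusted p = 0.0821). RRM2 therefore differed between the arms in opposite directions at neighbouring doses, lower in siACL at 2 mM and higher in siACL at 5 mM.

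**Figure D2:**
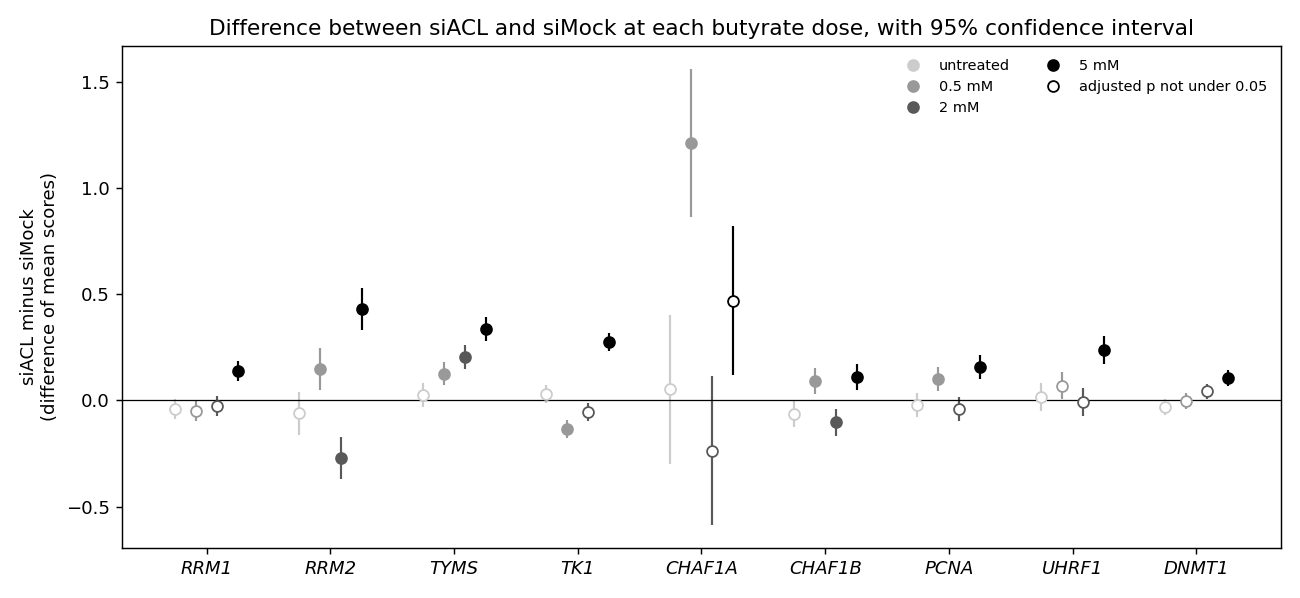
Difference of mean scores, siACL minus siMock, for the 9 genes at each dose, with 95% confidence intervals from limma. Filled points had an adjusted p under 0.05. At 5 mM the 8 filled points all lie above 0, and at 2 mM RRM2 lies at -0.271.

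Whether the response to butyrate itself differed between the arms was tested by subtracting the change in siMock from that in siACL. At 5 mM this interaction was positive and passed for 8 of the 9 genes, against 5.5% of all genes that passed with a positive and 3.35% with a negative value. RRM2 changed by 0.22 in siACL and by -0.271 in siMock (interaction 0.491 ± 0.067, adjusted p = 0.00013). TYMS changed by -0.412 in siACL and -0.724 in siMock (0.311 ± 0.037, adjusted p = 3.47e-05), and TK1 by 0.0383 in siACL and -0.207 in siMock (0.246 ± 0.029, adjusted p = 3.43e-05). UHRF1 had an interaction of 0.222 ± 0.044, RRM1 of 0.179 ± 0.032, PCNA of 0.179 ± 0.039, CHAF1B of 0.173 ± 0.042 and DNMT1 of 0.137 ± 0.025, with adjusted p = 0.00152 to 0.0143. Falls at 5 mM were thus smaller on the score scale in siACL for TYMS, RRM1, PCNA, UHRF1 and DNMT1. CHAF1A had an interaction of 0.418 ± 0.23 with a 95% interval of -0.0772 to 0.913 and did not pass (adjusted p = 0.333). All 8 calls were kept without each of the 12 arrays in turn. DNMT1 was not called on percentile ranks (adjusted p = 0.154) and CHAF1B not with only the 12 arrays compared (adjusted p = 0.0574).

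At the lower doses few interactions passed. At 0.5 mM CHAF1A changed by -0.101 in siACL and -1.26 in siMock (1.16 ± 0.23, adjusted p = 0.0111), and TK1 by -0.0275 in siACL and 0.137 in siMock (-0.164 ± 0.029, adjusted p = 0.00571), beside 1.39% of all genes with a positive and 1.72% with a negative call. The CHAF1A call was lost with only the 12 arrays compared (adjusted p = 0.0657), and the TK1 call on percentile ranks (adjusted p = 0.0512). CHAF1B had 0.154 ± 0.042 (adjusted p = 0.056) and passed without siMock replicate 1 at 0.5 mM (adjusted p = 0.0227). It also passed with array weights (0.0422), a trend and robust prior (0.0352) and among genes with a mean score above 0 (0.0218). RRM2 had 0.208 ± 0.067 (adjusted p = 0.112) and passed with that prior (0.0474) and among those genes (0.0429). PCNA had 0.121 ± 0.039 (adjusted p = 0.109) and passed without untreated siACL replicate 1 (adjusted p = 0.0365) and among those genes (0.0493). At 2 mM TYMS alone passed (0.179 ± 0.037, adjusted p = 0.00739), beside 3.46% of all genes with a positive and 2.73% with a negative call. RRM2 had an interaction of -0.21 ± 0.067 at 2 mM (adjusted p = 0.0744), which passed without siACL replicate 1 at 2 mM (-0.251, adjusted p = 0.0372). It also passed with the trend and robust prior (0.0298) and among genes with a mean score above 0 (0.028). The interactions share the untreated arrays of both arms.

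Ordered by level over the 8 groups, 7 of the 9 genes were lowest in siMock at 5 mM, and in each of these 7 its arrays lay apart from the next group above, an order that 8.61% of all genes showed. CHAF1A and CHAF1B were lowest in siMock at 0.5 mM, overlapping siMock at 5 mM. The top of the order was an untreated group for all but RRM2 and TK1, whose highest group was siMock at 2 mM. For TYMS, PCNA, UHRF1 and DNMT1 the arrays of the 2 untreated groups, which led the order, overlapped. Over the 24 arrays TYMS, RRM1, UHRF1 and DNMT1 correlated with each other at r = 0.88 to 0.94, CHAF1A with CHAF1B at 0.73 and RRM2 with TK1 at 0.68, whereas TK1 and CHAF1A had r = -0.02. PCNA had r = 0.74 to 0.79 with TYMS, RRM1, CHAF1B, UHRF1 and DNMT1, as high as the CHAF1A and CHAF1B pair. The subunit genes RRM1 and RRM2 had r = 0.35. These values describe arrays that share dose groups and are not independent points.

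The genes most like each member in their scores over the 24 arrays, taken from all genes tested, were named by their Pearson r. CENPV and RANBP1 were closest to TYMS (r = 0.979 for both), RPA1, a subunit gene of the single-strand DNA binding protein RPA, and SGOL1 (now SGO1), the shugoshin gene, to RRM1 (0.964 and 0.962), and TRIP13 and ZAK (now MAP3K20) to UHRF1 (0.968 and 0.964). CDC25A, a phosphatase gene that promotes entry into S phase, and the exonuclease gene EXO1 were closest to CHAF1A (0.877 and 0.847). CDC45L (now CDC45), a helicase component gene, and E2F2 were closest to CHAF1B (0.911 and 0.901), and the kinetochore genes ZWILCH and CENPQ to PCNA (0.931 and 0.923). RRM2 had CDCA4 (0.916) and the entry LOC100134304 (0.849), TK1 had LOC730740 (0.941) and the histone H3.3 gene H3F3A (0.929), and DNMT1 had LOC647000 (0.947) and SYDE1 (0.943). The LOC entries have no current name here, and H3F3A shares sequence with near-identical copies.

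Other genes of the same pathways gave the surroundings of these 9, from lists that were also chosen with earlier results known. Of 30 other nucleotide supply genes, 19 fell and 0 rose in siACL at 5 mM and 26 fell and 0 rose in siMock at 5 mM, with median differences of -0.144 in siACL and -0.297 in siMock. Over all genes 22.6% fell and 22.7% rose in siACL at 5 mM, and 25.2% fell and 25.6% rose in siMock. CTPS (now CTPS1), the CTP synthase gene, scored 0.44 in siMock at 5 mM and 1.11 in untreated siMock (-0.668 ± 0.024, adjusted p = 1.97e-13). In the same comparison DTYMK, the thymidylate kinase gene that acts after both TYMS and TK1, fell (-1.48 ± 0.44, adjusted p = 0.00909). DHODH, which makes orotate for pyrimidines, fell as well (-0.934 ± 0.21, adjusted p = 0.000898). DTYMK went from a mean score of -0.61 to -2.09 and DHODH from -0.265 to -1.2, all below the middle of the array. The standard errors of DTYMK and DHODH were larger than that of CTPS. In siACL against siMock at 5 mM 17 of the 30 were higher and 0 lower, beside 8.8% and 4.91% of all genes, among them DUT, the dUTPase gene (0.259 ± 0.038), and CTPS (0.247 ± 0.024). At 2 mM 11 fell and 1 rose in siACL, where 12.8% and 13.7% of all genes did, and 17 fell and 1 rose in siMock, where 19.3% and 18.7% did.

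Of 21 other histone chaperone and chromatin assembly genes, 12 fell and 3 rose in siACL at 5 mM (22.6% and 22.7% of all genes), and 14 fell and 2 rose in siMock (25.2% and 25.6%). HJURP, the chaperone gene for centromeric histone CENP-A, fell in siMock (-0.67 ± 0.032, adjusted p = 1.09e-11), as did the histone chaperone gene NAP1L1 (-0.595 ± 0.029) and NFKBIL2, now TONSL (-0.483 ± 0.098). Against siMock at 5 mM, 9 of the 21 were higher in siACL and 0 lower, against 8.8% and 4.91% of all genes, led by HJURP (0.364 ± 0.032) and NAP1L1 (0.292 ± 0.029).

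Of 21 PCNA loaders and partners, 8 fell and 6 rose in siACL at 5 mM and 11 fell and 4 rose in siMock. Over all genes 22.6% fell and 22.7% rose in siACL, and 25.2% fell and 25.6% rose in siMock, so the shares that rose are near or below those of all genes. In siMock at 5 mM the licensing gene CDT1 (-0.552 ± 0.036) and the clamp loader subunit gene RFC5 (-0.475 ± 0.024) were lower and POLD4, the smallest subunit gene of DNA polymerase delta, was higher (1.03 ± 0.065, adjusted p = 2.93e-10). RFC5 (0.231 ± 0.024) and CDT1 (0.209 ± 0.036) were among 6 of the 21 that were higher in siACL than in siMock at 5 mM, against 8.8% of all genes. Between 0.5 and 2 mM in siMock 7 of these 21 rose and 0 fell, against 10.5% and 11.1% of all genes. Of 13 other DNA methylation genes 4 fell and 4 rose at 5 mM in siACL, and 4 fell and 4 rose in siMock, which is near the shares over all genes (22.6% and 22.7% in siACL, 25.2% and 25.6% in siMock). In siMock CDCA7, whose product works with the remodeller HELLS, fell (-0.601 ± 0.029, adjusted p = 8.4e-12), and the methyl-CpG binding gene MBD1 rose (0.522 ± 0.11). TRDMT1, a tRNA methyltransferase gene of the DNMT family, also rose (1.4 ± 0.19), to -0.553 from -1.95, low on the array. In siACL against siMock at 5 mM DNMT3B, a de novo methyltransferase gene, was higher (0.203 ± 0.028, adjusted p = 0.000101) and the glycosylase gene MBD4 lower (-0.212 ± 0.051, adjusted p = 0.0101).

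**Figure D3:**
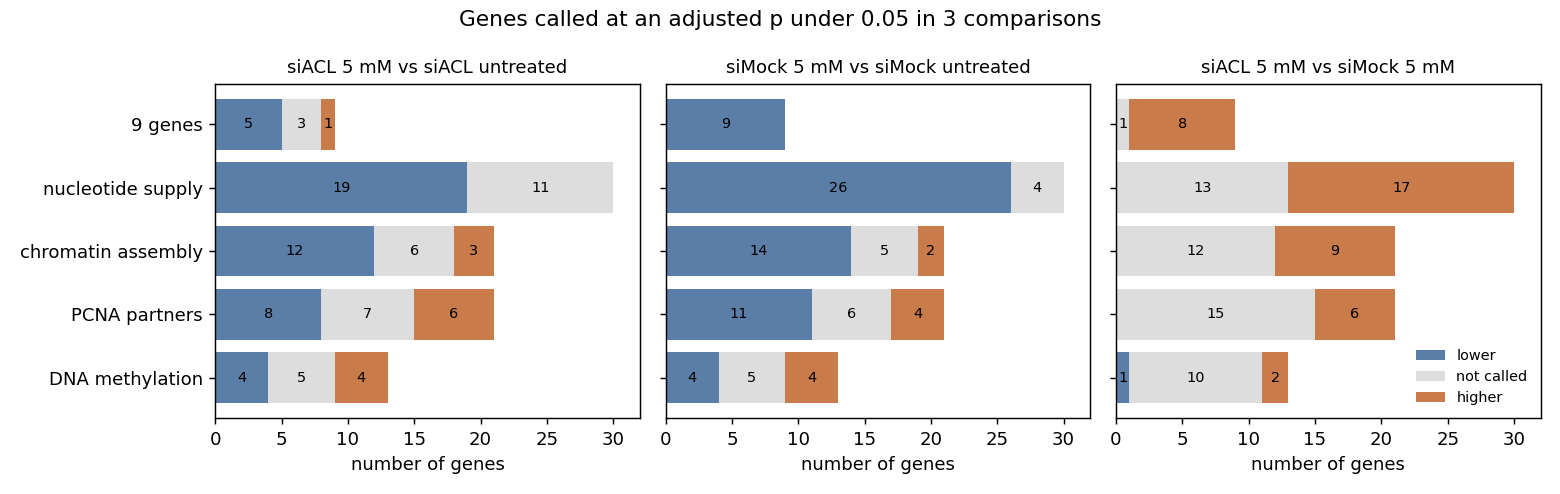
Number of genes called lower, not called or called higher at an adjusted p under 0.05, for the 9 genes and the 4 lists of related genes. The panels show siACL at 5 mM against untreated, siMock at 5 mM against untreated, and siACL against siMock at 5 mM, where 8 of the 9 genes and 17 of 30 other nucleotide supply genes were higher.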

How the data were processed

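RNA of 24 cultures was measured on Illumina arrays, per the labels. The score values are as deposited by the authors, and how they were made is not given in the sources used here. All 20747 values of an array match, to within 0.00074, normal quantiles computed from their ranks, so they are neither log2 nor signal, and a shift common to every gene leaves no trace. A second deposited table served only for its gene annotation: its 48 columns of signal and detection p match no sample's labels, so background correction, normalization and slide could not be varied and signal over background is unknown. The number of arrays limits the precision. Of the entries, 18172 with a gene symbol were tested and 2575 without one left out, and no filter was applied. All 9 symbols matched RefSeq by accession. Any 2 arrays held identical values for at most 0.248% of genes, so no array repeats another.

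All 24 arrays entered a single limma 3.58.1 fit (R 4.3.3) that had a mean for each group and no block, which gave 17 comparisons (residual degrees of freedom 16, prior 1.05), with Benjamini-Hochberg adjustment over all genes in each. The fit was run on simulated data in which each gene had the same SD in every group. That simulation cannot test calls of a gene with uneven spread, such as CHAF1A. Genes named are the 9 members and ACLY, of each list the called genes with the 3 largest differences in siMock at 5 mM and the 2 largest between the arms at 5 mM, and for each member the 2 genes with the highest Pearson r. Members, lists and comparisons were chosen with earlier results of these data known. Alternatives were a fit to only the arrays compared, a prior with trend and robust settings, weights per array, the replicate number as a block, percentile ranks, genes with a mean score above 0, all entries, a threshold of 0.01 and leaving out each array. Motifs were matched exactly on both strands in RefSeq windows.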

Additional observations from a re-analysis of the deposited data

Results flagged for a closer look

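The response to butyrate differed between siACL and siMock, by an interaction with an adjusted p under 0.05 from limma, in 11 results. At 5 mM the siACL change minus the siMock change was 0.49 for RRM2, 0.31 for TYMS, 0.25 for TK1, 0.22 for UHRF1, 0.18 for RRM1, 0.18 for PCNA, 0.17 for CHAF1B and 0.14 for DNMT1. At 2 mM it was 0.18 for TYMS. At 0.5 mM it was 1.16 for CHAF1A and -0.16 for TK1. RRM2 is the gene whose changes at 5 mM passed in opposite directions in the arms.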

How the results depend on the processing

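Of the 153 differences tested (9 genes in 17 comparisons), 88 passed, and 47 of these passed under every alternative that held the gene. CHAF1A was not in the alternative of genes with a mean score above 0, so its calls were not tested there. No alternative turned the direction of a called difference. Only the arrays compared, a fit with fewer arrays, ended 38 calls and gave 1, percentile ranks ended 16 and gave 1, all entries ended 6, array weights ended 2 and gave 2, the threshold of 0.01 ended 21, the trend and robust prior gave 4, genes with a mean score above 0 (without CHAF1A) gave 6, and the replicate block ended 4 and changed no other call. Leaving out 1 array ended 20 calls and gave 8. Signal over background is unknown, so how far weak signal limits CHAF1A was not tested.

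The number of the 9 genes called moved by over 1.5 times as follows. With only the arrays compared it was 0 in place of 2 in siACL at 0.5 mM, 5 in place of 9 and 4 in place of 7 in siMock at 0.5 and 2 mM, 0 in place of 2 and 1 in place of 4 for the siACL steps to 2 and to 5 mM, 1 in place of 6 for the siMock step to 2 mM, 2 in place of 6, 1 in place of 3 and 3 in place of 8 for siACL against siMock at 0.5, 2 and 5 mM, and 1 in place of 2 for the interaction at 0.5 mM. At the threshold of 0.01 it was 1 in siACL at 0.5 mM, 5 in siMock at 0.5 mM, 2 for the siACL step to 5 mM, 3 for siACL against siMock at 0.5 mM and 1 for the interaction at 0.5 mM. In siACL at 0.5 mM it was 0 on percentile ranks and 1 with all entries. For the interaction at 0.5 mM it was 4 with the trend and robust prior, 4 among genes with a mean score above 0 and 1 on percentile ranks, and for the interaction at 2 mM 2 with the prior and 2 among those genes. Which step of each alternative moved the count was not tested. Without 1 array the counts were 1 in siACL at 0.5 mM, 3 to 5 for siACL against siMock at 0.5 mM and 1 to 2 for the interaction at 2 mM. In siMock at 0.5 mM they were 6 to 7 in place of 9. There and in the other comparisons the move without 1 array was not over 1.5 times.

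Over all genes, only the arrays compared called 264 in place of 1315 in siACL and 1519 in place of 4022 in siMock at 0.5 mM, 650 in place of 2499 and 3327 in place of 5183 for the siACL steps, 1409 in place of 3924 and 2692 in place of 5315 for the siMock steps, 27 in place of 1147, 1548 in place of 3213, 765 in place of 3479 and 413 in place of 2493 for siACL against siMock from untreated to 5 mM, and 235 in place of 564, 503 in place of 1124 and 1024 in place of 1608 for the interactions. Array weights called 2066 genes in siACL at 0.5 mM, and 876 of the genes with a mean score above 0 were called for the interaction at 0.5 mM. Without 1 array, siACL against siMock untreated gave as few as 690 genes, siACL at 0.5 mM 870 and the interaction at 0.5 mM 354.

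Replicates with the same number did not deviate together (r = -0.0257 to 0.0225 over genes), and in 1 of 14 comparisons every array correlated best with its own number. With the number as a block 8 genes in siMock at 0.5 mM, 5 in siACL at 2 mM, 4 in siACL against siMock at 0.5 mM and 8 for the interaction at 5 mM were called.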
